A study of Mus musculus with 37 samples.

Results

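The pentose phosphate pathway and the cytosolic NADPH supply were followed through 8 genes chosen by name: G6pdx, Pgls, Pgd, Rpe, Rpia, Tkt, Taldo1 and Idh1. Every probe set whose annotated gene symbol was on that list was taken, which gave 14 probe sets for 7 of the 8 genes, out of 12393 genes with a probe set of their own among 22690 probe sets. Pgd had 4 probe sets, Rpe had 3, Tkt and Idh1 had 2 each, and Pgls, Rpia and Taldo1 had 1 each. None of these 14 probe sets was annotated to more than 1 gene. No probe set carried the symbol G6pdx in the annotation used, so glucose-6-phosphate dehydrogenase was not analysed here.

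The tissue was whole mammary gland of female C57BL/6 mice, an inbred strain, which were 9 weeks old when they were assigned to groups and were then monitored for 6 weeks. In the CR+EX group (9 arrays) mice were calorie restricted by 30% and had a running wheel. In the CR group (9 arrays) they were restricted by 30% without a wheel. AL+EX mice (9 arrays) ate ad libitum and had a wheel, and AL mice (10 arrays) ate ad libitum without one. The restricted diet supplied 70% of the AL calories and the full amount of the other nutrients. Total RNA came from the left and right thoracic glands of an animal, pooled, and each array carried its own animal number. No group carried an altered allele or a drug.

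Values are Affymetrix signal intensities on a linear scale, and differences are on the scale of log2(signal + 16). The arrays had a common scale, with a mean after trimming 2% at each end between 500.16 and 500.23. Levels of different probe sets are not comparable with each other. Adipocyte and epithelial markers were both present in the gland samples: Adipoq, an adipocyte hormone, had signals of 12686.5 to 30960.3 and Krt8, a keratin of luminal epithelium, 595.8 to 6801. There were 15 arrays high in B lymphocyte markers (3 CR+EX, 4 CR, 4 AL+EX and 4 AL), and 5 arrays had a Gapdh 3' to 5' signal ratio above 2, a sign of shortened RNA (2 CR+EX and 3 AL). In whole tissue, fewer cells of a type and less RNA per cell cannot be told apart.

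The pathway opens with an oxidative branch, in which glucose-6-phosphate dehydrogenase, the lactonase Pgls and 6-phosphogluconate dehydrogenase (Pgd) oxidise glucose 6-phosphate to ribulose 5-phosphate and yield NADPH. A non-oxidative branch follows, in which the epimerase Rpe, the isomerase Rpia, transketolase (Tkt) and transaldolase (Taldo1) interconvert sugar phosphates and return carbon to glycolysis. In adipose and mammary tissue NADPH is the reductant of fatty acid and cholesterol synthesis, and cytosolic isocitrate dehydrogenase (Idh1) is another source of it.

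The upstream sequences of 4 genes are shown because these genes had the called probe sets of the results below. Each run holds the 250 bases before the transcription start, from RefSeq (GRCm38.p6), 5' to 3' on the gene's own strand. Capitals mark matches, on either strand, to the GC box, which is read as GGGCGG. They also mark those to the CCAAT box.

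Taldo1 promoter, chr7:141391910-141392159, plus strand: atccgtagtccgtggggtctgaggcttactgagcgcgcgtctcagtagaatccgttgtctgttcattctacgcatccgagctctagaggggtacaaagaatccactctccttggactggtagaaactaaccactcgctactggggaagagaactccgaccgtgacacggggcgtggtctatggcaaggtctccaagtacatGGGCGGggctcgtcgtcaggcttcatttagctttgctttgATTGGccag
Rpe promoter, chr1:66700581-66700830, plus strand: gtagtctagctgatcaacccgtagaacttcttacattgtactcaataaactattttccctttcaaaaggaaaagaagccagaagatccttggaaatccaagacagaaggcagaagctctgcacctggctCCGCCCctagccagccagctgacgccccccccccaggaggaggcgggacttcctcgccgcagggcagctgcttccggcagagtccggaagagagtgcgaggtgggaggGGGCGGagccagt
Tkt promoter, chr14:30548881-30549130, plus strand: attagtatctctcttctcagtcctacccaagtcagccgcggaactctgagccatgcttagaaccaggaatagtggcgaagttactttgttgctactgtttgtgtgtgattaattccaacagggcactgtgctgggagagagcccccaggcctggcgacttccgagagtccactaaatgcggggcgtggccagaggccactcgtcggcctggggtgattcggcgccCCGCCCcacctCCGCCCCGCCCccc
Pgd promoter, chr4:149166706-149166955, minus strand: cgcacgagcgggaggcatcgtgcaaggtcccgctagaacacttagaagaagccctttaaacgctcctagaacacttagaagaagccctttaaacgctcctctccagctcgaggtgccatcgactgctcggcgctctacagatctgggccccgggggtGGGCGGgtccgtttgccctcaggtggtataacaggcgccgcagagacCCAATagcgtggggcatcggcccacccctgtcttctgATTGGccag

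Entries were present for all 8 genes. The start used for Rpe lies 34 bases inside the annotated gene, and the 3 GC box matches of Tkt include a pair that overlap. GGGCGG was found upstream of 8 of 8 genes, against 32.7% of 32851 mouse promoters of the same length. CCAAT was found upstream of 3 genes (Pgd, Taldo1 and Idh1), against 33.8% of promoters. In Taldo1 and in Pgd a CCAAT match began 9 bases before the start. The letters TGACNNNGC, the antioxidant response element core, were found upstream of 1 gene, G6pdx (10.2% of promoters). Neither the E-box CACGTG (6.02% of promoters) nor the sterol element TCACNCCAC (1.05%) was found in the 8 windows. Matches were sought on both strands, and a match describes the sequence only.

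Under calorie restriction the transcripts of Taldo1 and Rpe rose at the brightest probe set of each gene. Both encode enzymes of the non-oxidative branch. The rises were 1.33-fold and 1.42-fold over the unrestricted mice when the wheel and no-wheel groups were averaged. Pgd, the NADPH-yielding dehydrogenase, differed by a similar size (1.37-fold) but did not pass the test with the brightest of its probe sets. These calls depended on the probe set. In the limma fit over all probe sets, 1451015_at of Tkt was called (0.51, adjusted p = 0.0025). So were 1423706_a_at (0.63, adjusted p = 0.014) and 1436771_x_at (0.55, adjusted p = 0.047) of Pgd. Probe set 1416705_at of Rpe was not called (0.25, adjusted p = 0.16). Idh1, the isocitrate dehydrogenase, had an averaged difference of -0.02 at its brightest probe set and was not called in any contrast. Its other probe set differed by 0.23 (limma adjusted p = 0.22). Of the 7 genes, 2 were called in this contrast (limma, adjusted p under 0.05), both higher, where 8.75% of all 9294 genes tested were called and 4.19% were called higher. The median difference of the 7 genes was 0.23, against -0.02 for all genes tested, and 6 of the 7 differences were above 0, against 44.8% of all genes. The genes were chosen with earlier results of these data known, and several varied together across the arrays. These comparisons with all genes are therefore a description. All 7 genes passed the filter on low signals.

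**Figure D1:**
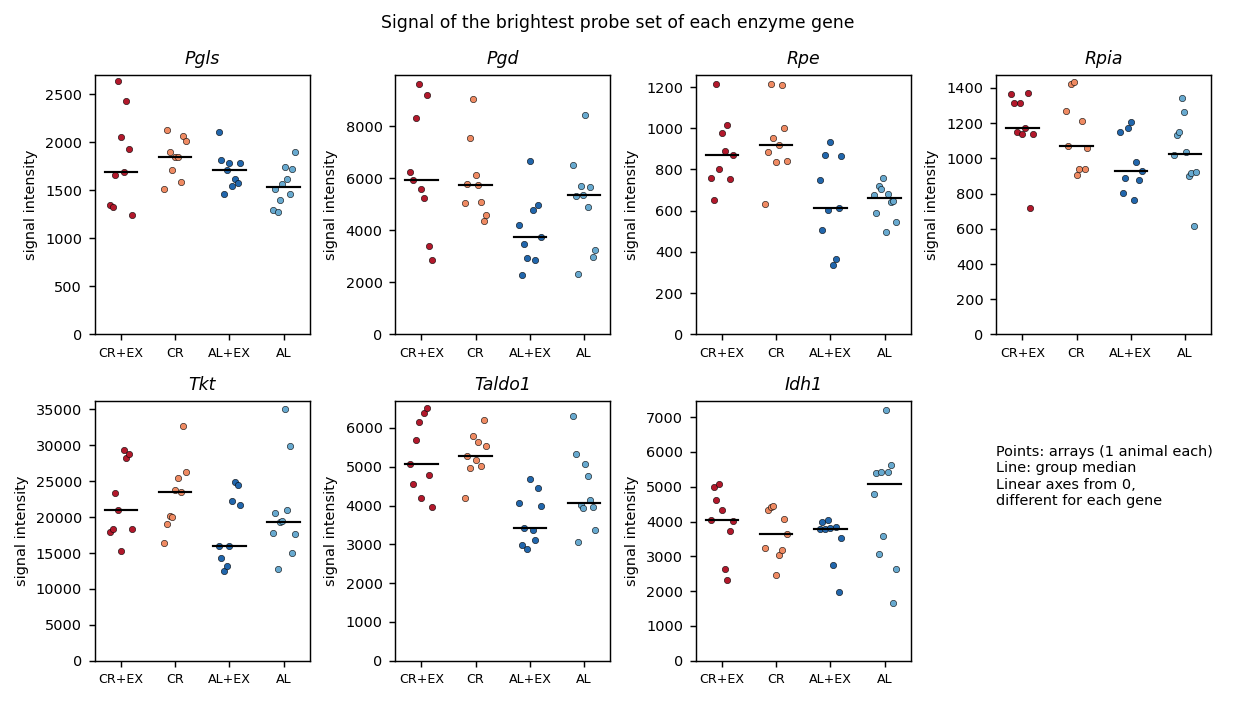
Signal intensity (linear vertical axes from 0, a different range for each gene) of the brightest probe set of each gene in the CR+EX, CR, AL+EX and AL groups; each point is 1 array and the line is the group median. The restricted groups of Taldo1 and Rpe sit higher with some overlap, and the AL points of Idh1 spread from 1653.2 to 7189.8.

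In the oxidative branch, the lactonase gene Pgls had signals of 1247.1 to 2634.2 in CR+EX glands (median 1690.4) and 1511.8 to 2131.6 in CR glands (median 1844.4). The range was 1459.1 to 2110.4 in AL+EX glands (median 1707.9) and 1277.5 to 1897.1 in AL glands (median 1536.65). The groups overlapped, and the CR+EX arrays were the most spread. The averaged restriction difference of Pgls was 0.15 ± 0.08 (log2 ± SE, limma adjusted p = 0.26), and none of the pairwise differences passed. Its largest pairwise difference in size among those of restricted against unrestricted groups was CR against AL, 0.25 ± 0.11 (adjusted p = 0.28).

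Pgd, which releases carbon dioxide and NADPH to form ribulose 5-phosphate, ranged from 2849.4 to 9618.1 in CR+EX glands (median 5949.9) and from 4345.1 to 9028.7 in CR glands (median 5757.8). It ranged from 2298.3 to 6667 in AL+EX glands (median 3748) and from 2331.8 to 8438.2 in AL glands (median 5337.95). Every group overlapped with the others, although 14 of the 18 restricted arrays lay above the unrestricted median. The averaged difference of this probe set was 0.45 ± 0.16 (limma adjusted p = 0.069). The SD of Pgd on the log2 scale was 0.60 in CR+EX and 0.57 in AL glands, and that of Taldo1 was 0.27 in CR+EX and 0.31 in AL glands.

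The other 3 probe sets of Pgd gave the same direction and different calls. In the fit over 16969 probe sets, 1423706_a_at was higher by 0.63 ± 0.16 (1.55-fold, adjusted p = 0.014) and 1436771_x_at by 0.55 ± 0.17 (1.46-fold, adjusted p = 0.047). The call of 1436771_x_at was lost in 25 of the 37 fits that each left out 1 array. Without the 15 arrays rich in B lymphocyte markers neither passed, at 0.67 (adjusted p = 0.061) and 0.62 (adjusted p = 0.059). Both differences were larger than over all arrays, and that fit called 3.61% of all probe sets, against 7.31% with all arrays. Probe set 1438627_x_at differed by 0.28 ± 0.11 (adjusted p = 0.12). Signals of 1423706_a_at ran from 2404.8 to 7730.9 in CR+EX glands and 2762.7 to 6609.7 in CR glands, against 1142.6 to 4396.8 in AL+EX glands and 1228.9 to 4616.6 in AL glands. The restricted and unrestricted ranges of that probe set overlapped from 2404.8 to 4616.6. Over the 37 arrays the brightest Pgd probe set followed the others with r = 0.94, 0.78 and 0.92 (log2 values centred on run means, a description, since these probe sets measure the same gene).

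The products of the oxidative branch are sorted by Rpe and Rpia. Rpe, which converts ribulose 5-phosphate to xylulose 5-phosphate, ranged from 652.2 to 1215.8 in CR+EX glands (median 871.9) and from 632 to 1216.5 in CR glands (median 917.4). The range was 337 to 932.2 in AL+EX glands (median 614.1) and 496.4 to 756.7 in AL glands (median 659.9). The groups overlapped in part: 17 of 18 restricted arrays were above the unrestricted median, 7 were above every unrestricted array, and 8 of 19 unrestricted arrays were below every restricted array. The averaged difference was 0.51 ± 0.11, a 1.42-fold rise (limma adjusted p = 0.0027).

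Rpe's call came from 1 of its probe sets. The next brightest, 1416705_at, differed by 0.25 ± 0.11 (adjusted p = 0.16) and followed the brightest with r = 0.41 over the arrays. The third, 1448444_at, had signals of only 2.2 to 76.6, below the filter, and was not tested. With the mean of all 3 probe sets in place of the brightest, the Rpe difference was 0.20 (adjusted p = 0.14), which ended the call. That mean gives the low-signal 1448444_at the same weight as the others, and its part in the loss was not tested.

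Rpia, which makes ribose 5-phosphate for nucleotides, ranged from 720.7 to 1373.9 in CR+EX glands (median 1174.3) and from 906.3 to 1435.3 in CR glands (median 1067.5). It ranged from 765.7 to 1207.4 in AL+EX glands (median 926.6) and from 618.7 to 1344.7 in AL glands (median 1027.15). All 4 groups overlapped. The averaged difference was 0.21 ± 0.09 (limma adjusted p = 0.13), and without CR+EX replicate 8, the lowest of its group, it was 0.26 with an adjusted p of 0.046.

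In the carbon-shuffling steps, Taldo1, which moves a 3-carbon unit between sugar phosphates, ranged from 3962.6 to 6515.3 in CR+EX glands (median 5059.5) and from 4186.6 to 6196.8 in CR glands (median 5279.6). It ranged from 2873.8 to 4682.4 in AL+EX glands (median 3413.7) and from 3070.4 to 6310.9 in AL glands (median 4076.4). Of the 18 restricted arrays 17 lay above the unrestricted median, and 9 of 19 unrestricted arrays lay below every restricted one. The upper AL arrays reached into the restricted range, so that 2 restricted arrays exceeded all unrestricted arrays. The averaged difference was 0.41 ± 0.09, a 1.33-fold rise (limma adjusted p = 0.0024), and the call held in all 37 fits that left out 1 array.

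Tkt, the thiamine-dependent enzyme that moves 2-carbon units, had signals of 15344.8 to 29337 in CR+EX glands (median 21023.6) and 16411.1 to 32673.3 in CR glands (median 23480.2) at its brightest probe set. They were 12554 to 24849.1 in AL+EX glands (median 15946.8) and 12715.3 to 35066.1 in AL glands (median 19380.95). The highest array of all was an AL array, and the groups overlapped throughout. This probe set differed by 0.23 ± 0.12 (limma adjusted p = 0.23).

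The other Tkt probe set, 1451015_at, gave a call. Its signals were 13032.7 to 25027.2 in CR+EX glands (median 17827.8) and 11534 to 24945.1 in CR glands (median 19991.3). They were 9194.9 to 17833.7 in AL+EX glands (median 10970.9) and 10433.1 to 21443.5 in AL glands (median 14265.8). The difference was 0.51 ± 0.11 (1.43-fold, adjusted p = 0.0025 over all probe sets), and this call held in all 37 fits that left out 1 array. The probe sets of Tkt correlated with each other at r = 0.67.

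Idh1, which turns isocitrate into 2-oxoglutarate and yields NADPH in the cytosol, ranged from 2327.3 to 5088.9 in CR+EX glands (median 4039.8) and from 2470.5 to 4449.2 in CR glands (median 3654). It ranged from 1978.9 to 4029.3 in AL+EX glands (median 3791.7) and from 1653.2 to 7189.8 in AL glands (median 5078.9). The AL group held both the lowest and the highest array, and its SD on the log2 scale was 0.64, against 0.39 in CR+EX. The averaged difference was -0.02 ± 0.14, with a 95% interval of -0.30 to 0.27 (limma adjusted p = 0.96). With the mean of the B lymphocyte markers as a covariate it was -0.08 (adjusted p = 0.72), and without the 15 arrays rich in those markers -0.27 (adjusted p = 0.30). Without those arrays CR against AL was -0.51 for Idh1 (adjusted p = 0.24), against -0.20 over all arrays (adjusted p = 0.68). The other Idh1 probe set, 1419821_s_at, differed by 0.23 ± 0.11 (adjusted p = 0.22) and correlated with the brightest at r = 0.49.

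Over all 13 member probe sets tested, 5 were called in the averaged contrast, all higher (Taldo1, 1416706_at of Rpe, 1451015_at of Tkt, and 1423706_a_at and 1436771_x_at of Pgd), against 7.31% of all probe sets called and 3.43% called higher. Probe sets of 1 gene are not independent of each other. In Affymetrix naming the endings _x_at and _s_at mark probe sets whose probes can also match other transcripts. They include the brightest probe sets of Pgd, Tkt and Idh1, and the part of other transcripts in those signals was not tested.

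**Figure D2:**
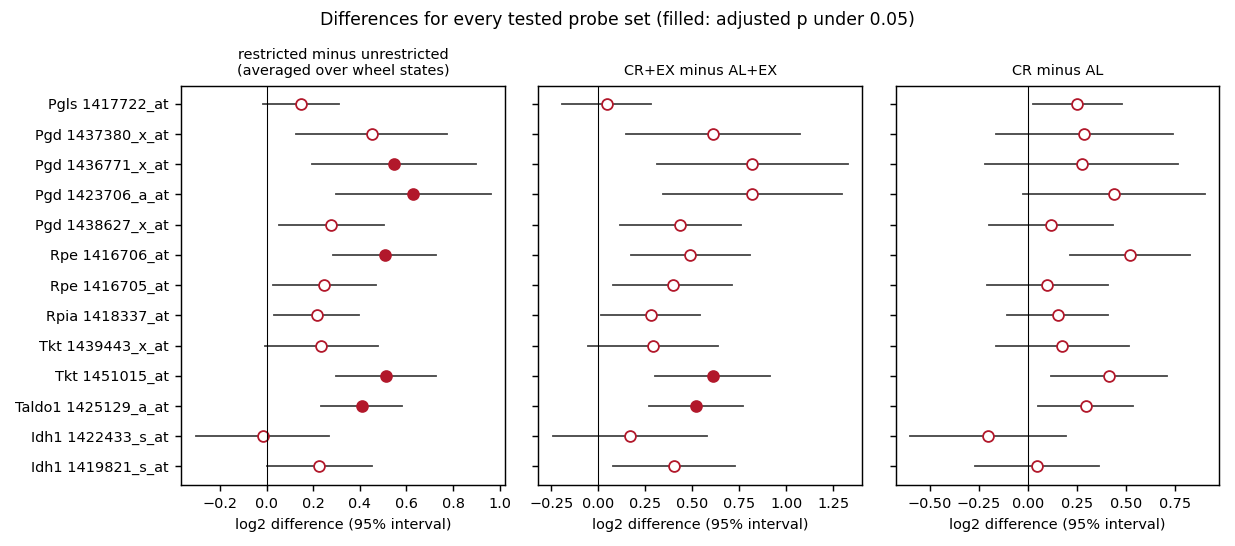
Log2 differences (points) with 95% intervals (bars) of the 13 tested probe sets in 3 contrasts: restricted minus unrestricted averaged over wheel states, CR+EX minus AL+EX, and CR minus AL; filled points had an adjusted p under 0.05. Filled points are 5 in the averaged panel, 2 in the CR+EX minus AL+EX panel and none in the CR minus AL panel.

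With the wheel present, restriction left Taldo1 as the 1 gene of 7 called between CR+EX and AL+EX, where 1.65% of all genes were called. Its difference was 0.52 ± 0.12, a 1.43-fold rise (limma adjusted p = 0.021). The call was lost without AL+EX replicate 7 or without CR+EX replicates 4, 6 or 7, taken 1 at a time, with adjusted p-values of 0.05 to 0.057. With the mean of the adipocyte markers as a covariate the difference was 0.45 (adjusted p = 0.055). Among the 13 probe sets, 1451015_at of Tkt was called as well, at 0.61 ± 0.15 (adjusted p = 0.037), which made 2 of 13 against 1.04% of all probe sets, and 9 of the 37 fits that left out 1 array lost it. Pgd differed by 0.61 ± 0.23 (adjusted p = 0.17), and by 1.06 (adjusted p = 0.033) without the 15 arrays rich in B lymphocyte markers. The difference of Rpe was 0.49 ± 0.15 (adjusted p = 0.093).

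Without the wheel, between CR and AL, 0 of 7 genes were called (limma), where 0.441% of all genes were. At an unadjusted p under 0.05 there were 3 of the 7 and 1386 of all 9294 genes. Rpe differed by 0.52 ± 0.15 (adjusted p = 0.082), Taldo1 by 0.30 ± 0.12 (adjusted p = 0.23) and Pgls by 0.25 ± 0.11. Rpe passed in this contrast with the run of animal numbers as a block (0.55, adjusted p = 0.014, in a fit that called 573 of all genes against 41 without the block) and without CR replicate 1 (0.59, adjusted p = 0.04). No difference between the restriction effects with and without the wheel passed the test. The interaction ranged from -0.21 for Pgls to 0.37 for Idh1, 0 of 7 genes were called where 0% of all genes were, and none of the 7 had an unadjusted p under 0.05 (295 of all genes did). For Taldo1 the interaction was 0.22 ± 0.17, with a 95% interval of -0.12 to 0.57.

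Between the groups that differ in both diet and wheel, CR against AL+EX called 2 of 7 genes (limma), against 1.97% of all genes. Taldo1 differed by 0.55 ± 0.12 (adjusted p = 0.014) and Rpe by 0.58 ± 0.15 (adjusted p = 0.04). The Rpe call was lost in 10 of the 37 fits that left out 1 array: AL+EX replicates 2, 4, 6 and 7, and CR replicates 3, 4, 5, 6, 7 and 8. With the mean of its probe sets, the low-signal 1448444_at among them, the Rpe difference was 0.14 (adjusted p = 0.63). Rpe also missed the threshold with the adipocyte covariate (0.53, adjusted p = 0.10), with only the groups of the contrast (0.58, adjusted p = 0.12) and without the 15 arrays rich in B lymphocyte markers (0.61, adjusted p = 0.21). Taldo1 missed it with the adipocyte covariate (0.47, adjusted p = 0.055) and without those 15 arrays (0.67, adjusted p = 0.073). The fit without those arrays called 0.14% of all genes in this contrast. At the probe set level 3 of 13 were called (1.61% of all), with 1451015_at of Tkt at 0.69 ± 0.15 (adjusted p = 0.014). CR+EX against AL called 0 of 7 genes (0.624% of all genes), and at an unadjusted p under 0.05 there were 2 of the 7 and 1222 of all 9294 genes.

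The running wheel was not followed by a detectable difference in any of the 7 genes. Averaged over diets the differences ran from -0.15 for Pgd to 0.04 for Pgls, with 0 of 7 called by limma, 0% of all genes called and 0 of the 7 at an unadjusted p under 0.05 (266 of all genes). Between AL+EX and AL, 6 of the 7 differences were below 0 (46.5% of all genes were above 0), and again 0 of 7 and 0% of all genes were called. Taldo1 was the single member with an unadjusted p under 0.05 there (600 of all genes), at -0.25 ± 0.12 (p = 0.041, limma adjusted p = 0.75). Between CR+EX and CR the 7 differences lay between -0.09 and 0.10, with 0 called, 0% of all genes called and 0 of the 7 at an unadjusted p under 0.05 (83 of all genes).

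The order of the group means was alike in 5 genes. For Pgd, Rpe, Rpia, Tkt and Taldo1 both restricted groups lay above AL, and AL+EX was the lowest group. For Taldo1 the means on the log2 scale were 12.34 in CR+EX and 12.37 in CR glands, against 11.82 in AL+EX and 12.08 in AL glands. Neighbours in that order did not pass the test: CR+EX and AL differed by 0.27 ± 0.12 (limma adjusted p = 0.32). The contrasts share their groups, so an order repeated over genes or contrasts is a description. Pgls had its lowest mean in AL (10.60) and Idh1 its highest in AL (12.02), and neither gene had a call in any contrast.

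The animal numbers in the labels fall into 4 runs with gaps between them, each holding all 4 groups (8, 11, 10 and 8 arrays). The labels do not say what the runs stand for. Within runs 1 to 4 the averaged restriction difference of Taldo1 was 0.08, 0.55, 0.59 and 0.36, and that of Rpe was 0.21, 0.44, 1.04 and 0.38. Both kept 1 direction, as 89.9% of the genes called in this contrast and 27.5% of all genes tested did. Pgd (0.42, 0.95, 0.39 and 0.03), Rpia (0.29, 0.17, 0.32 and 0.20) and Tkt (0.07, 0.38, 0.04 and 0.42) also kept 1 direction, with small values in some runs. For Taldo1, Pgd and Tkt these averages joined differences of opposite sign in some runs. CR minus AL was -0.30 for Taldo1 in run 1. In runs 1 and 3 it was -0.12 and -0.13 for Pgd, and -0.11 and -0.21 for Tkt. CR+EX minus AL+EX was -0.47 for Pgd in run 4. For Rpe and Rpia both differences were above 0 in every run. With the run as a block, Pgd (0.46, adjusted p = 0.023) and Rpia (0.23, adjusted p = 0.024) passed besides Taldo1 and Rpe, for 4 of 7 genes, in a fit that called 1743 of 9294 genes.

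Idh1 and Pgls did not keep 1 direction over the runs. Pgls had averaged differences of -0.095, 0.34, 0.24 and 0.028 in runs 1 to 4. The averaged difference of Idh1 was -0.11 in run 1, 0.23 in run 2, -0.73 in run 3 and 0.71 in run 4. The 3 AL arrays of run 3 had signals of 5435 to 7189.8, and the 2 AL arrays of run 4 had 1653.2 and 2631.9. All 8 arrays of run 4 were among the 15 high in B lymphocyte markers. Tkt differed most by run, with run means on the log2 scale of 14.09, 14.07, 14.67 and 14.45, and the run accounted for 0.455 of its variance on that scale and the group for 0.124. For Taldo1 the run accounted for 0.022 and the group for 0.452.

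**Figure D3:**
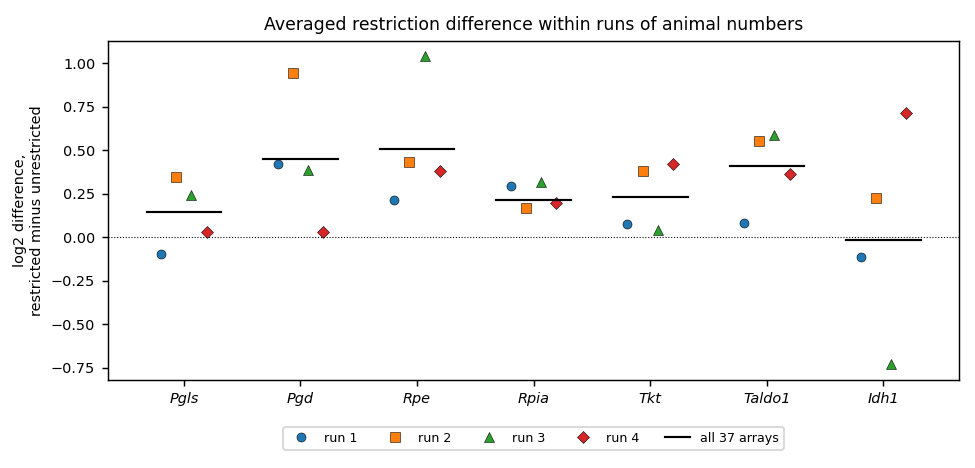
Log2 difference, restricted minus unrestricted averaged over wheel states, within each of the 4 runs of animal numbers (symbols) and over all 37 arrays (bars) for the 7 genes. Taldo1, Rpe, Pgd, Rpia and Tkt lie above 0 in every run, while Idh1 reaches from -0.73 in run 3 to 0.71 in run 4. Pgls lies below 0 in run 1 (-0.095) and above 0 in the other runs.

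Within runs the enzymes of the pathway varied together across the arrays to different degrees. Permutation within runs, which gave the p-values, exchanged arrays over the 4 groups. A group difference shared by a pair can therefore enter r and its p-value. Of 35 relations tested (21 between the 7 genes, and 14 with the means of adipocyte and of luminal markers), with log2 values centred on run means, the closest pair was Pgd and Taldo1. Their Pearson r was 0.84 and their Spearman rho 0.82 over 37 arrays (permutation within runs, p = 1e-05 for both, the smallest the permutations can give; adjusted p = 8.7e-05 and 0.00035). Without the 2 arrays farthest from the Pgd median r was 0.81, and with the group means removed as well it was 0.78. Pgd and Tkt had r = 0.70 and rho = 0.73 (permutation p = 1e-05 and 2e-05, adjusted p = 8.7e-05 and 0.00035), and r was 0.67 without the 2 farthest arrays and 0.62 with group means removed. Tkt and Taldo1 had r = 0.69 and rho = 0.69 (permutation p = 1e-05 and 4e-05, adjusted p = 8.7e-05 and 0.00047), and r was 0.68 without the 2 farthest arrays and 0.60 with group means removed.

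Rpe went with Taldo1 (r = 0.68, rho = 0.63, permutation p = 1e-05 and 0.00011, adjusted p = 8.7e-05 and 0.00077), and r was 0.60 without the 2 farthest arrays and 0.45 with group means removed. Idh1 was related to Tkt alone among the 6 other genes at an adjusted p under 0.05 (r = 0.48, rho = 0.47, permutation p = 0.0039 and 0.0046, adjusted p = 0.017 and 0.021), with r = 0.36 without the 2 farthest arrays and 0.51 with group means removed. Arrays share hybridisation and RNA quality, which can move genes together, and the part of these in the correlations was not tested.

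**Figure D4:**
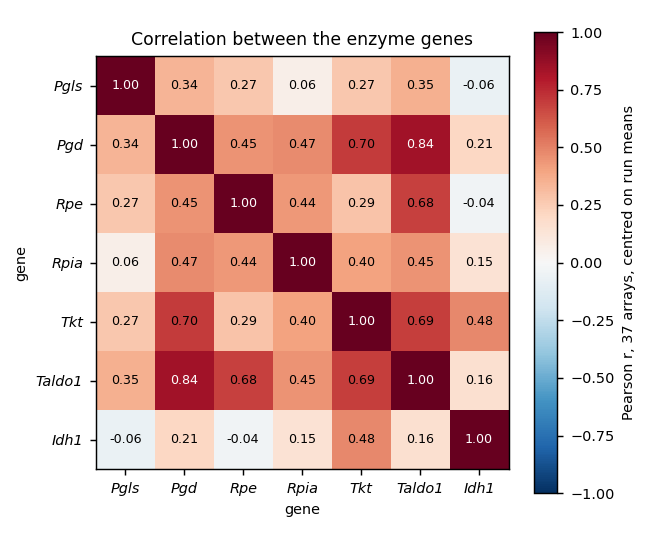
Pearson correlation between the 7 genes over 37 arrays, log2 values centred on the means of the runs; colour and number give r. The block of Pgd, Tkt and Taldo1 holds values of 0.69 to 0.84, and the Idh1 row holds values of -0.06 to 0.48.

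The genes nearest to each member by this measure, the 3 with the highest r over the 37 arrays among all genes tested, were as follows. Taldo1 was nearest to Parm1 (r = 0.88), to Pygl, liver glycogen phosphorylase (0.88), and to Fabp5, a fatty acid binding protein (0.88), all 3 called higher in the averaged contrast (0.63, 0.51 and 1.03). Pgd was nearest to Taldo1, to Acss2, which makes acetyl-CoA from acetate (0.83), and to Pygl (0.83). Rpe was nearest to Nrg4 (0.86), Entpd5 (0.85) and Chn1 (0.85). Tkt was nearest to Pdhb, a pyruvate dehydrogenase subunit (0.83), Thrsp, a lipogenic protein (0.82), and Lss, lanosterol synthase (0.79). Idh1 was nearest to Farp1 (0.72), Plin4 of lipid droplets (0.71) and Wdfy2 (0.69), Pgls to Tomm40, Pex14 and Acot8 (0.64, 0.63 and 0.63), and Rpia to Acox2, Tmem208 and Aldh1a7 (0.68, 0.66 and 0.63). These are the highest of 9293 possible partners for each gene, so they carry no test.

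Adipocyte and luminal epithelial markers were set beside these genes, and the group ranges of their means overlapped. On the array were 7 of the 10 adipocyte markers, and their mean log2 signal had medians of 13.56 in CR+EX (12.99 to 14.12) and 13.62 in CR (12.80 to 14.10), against 13.33 in AL+EX (13.02 to 13.54) and 13.46 in AL (13.09 to 14.16). Of these 7 markers 1 was called higher, as were 4.19% of all genes. The 10 luminal epithelial markers had medians of 10.01 in CR+EX (9.45 to 10.69) and 10.11 in CR (8.27 to 10.68), against 10.34 in AL+EX (8.61 to 11.24) and 10.77 in AL (8.53 to 11.10), and 2 of 10 were called lower, as were 4.56% of all genes. Taldo1 went with the adipocyte mean (r = 0.62, rho = 0.63, permutation p = 8e-05 and 0.00011, adjusted p = 0.00056 and 0.00077, r = 0.62 without the 2 farthest arrays) and so did Rpe (r = 0.57, rho = 0.47, permutation p = 0.0022 and 0.0075, adjusted p = 0.011 and 0.029, r = 0.37 without the 2 farthest arrays). With group means removed as well, r with the adipocyte mean was 0.42 for Taldo1 and 0.40 for Rpe.

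The luminal mean had the other sign for these genes. For Taldo1 r was -0.41 and rho -0.39 (permutation p = 0.011 and 0.019, adjusted p = 0.025 and 0.056), and r was -0.31 without the 2 farthest arrays. For Rpe r was -0.40 and rho -0.38 (permutation p = 0.022 and 0.032, adjusted p = 0.042 and 0.07), and r was -0.38 without the 2 farthest arrays. Idh1 went with the luminal mean (r = 0.48, rho = 0.42, permutation p = 0.014 and 0.024, adjusted p = 0.031 and 0.061, r = 0.37 without the 2 farthest arrays). Of the 14 tested marker relations, those of Pgls and Tkt with the adipocyte mean also had adjusted p-values under 0.05 for both measures (r = 0.40 and 0.46), and that of Pgd did for r alone (0.39, adjusted p = 0.02). With group means removed as well, r with the adipocyte mean was 0.42 for Pgls, 0.30 for Tkt and 0.16 for Pgd. With the luminal mean it was then -0.29 for Taldo1, -0.21 for Rpe and 0.51 for Idh1. Correlations with the B lymphocyte mean, centred on run means alone, ran from -0.39 for Taldo1 to -0.03 for Rpia and were not tested.

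With the adipocyte mean as a covariate the averaged differences of Taldo1 (0.36, adjusted p = 0.0084) and Rpe (0.47, adjusted p = 0.0083) stayed past the threshold, and that of the brightest Tkt probe set was 0.09 (adjusted p = 0.65). With the run as a block besides, a setting chosen after seeing the data, they were 0.29 (adjusted p = 0.038) and 0.40 (adjusted p = 0.015). Without the 5 arrays of high Gapdh ratio they were 0.48 (adjusted p = 0.0012) and 0.55 (adjusted p = 0.0053). The other Tkt probe set, 1451015_at, passed in 14 of 14 other settings, the adipocyte covariate among them (0.35 to 0.57, adjusted p at most 0.023). The covariate is itself a mean of transcripts, so these fits cannot tell cell share from RNA per cell. No luminal covariate was fitted, and the part of cell composition in the differences was not tested.

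Malic enzyme, another source of NADPH, stood higher under restriction. Of 9 tested genes of that list, 4 were called higher and 0 lower in the averaged contrast (median 0.21, against -0.02 for all genes tested). Me1, cytosolic malic enzyme, rose by 1.02 ± 0.14 (2.03-fold, limma adjusted p = 5.9e-06), and Nadk, which phosphorylates NAD to NADP, rose by 0.39 ± 0.08 (adjusted p = 0.0019). Aldh1l1, the folate enzyme, rose by 0.62 ± 0.14 (adjusted p = 0.0042), while its other probe set differed by 0.05. The mitochondrial malic enzyme Me2, which in the main makes NADH, rose by 0.55 ± 0.17 (adjusted p = 0.036).

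Among the genes around the pathway, 2 of 8 tested were called higher and 0 lower (median 0.11): Dera, deoxyribose-phosphate aldolase (0.34 ± 0.08, adjusted p = 0.0098), and Pgm1, phosphoglucomutase (0.31 ± 0.09, adjusted p = 0.032). In the citrate shuttle, which supplies cytosolic acetyl-CoA, 2 of 5 were called higher and 0 lower (median 0.34): Acly, ATP citrate lyase (0.88 ± 0.14, adjusted p = 1e-04), and Pcx, pyruvate carboxylase (0.56 ± 0.13, adjusted p = 0.0049). Of the regulators, 1 of 7 was called higher and 0 lower (median 0.14): Mlxipl, the carbohydrate response factor ChREBP (0.29 ± 0.09, adjusted p = 0.027).

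Genes were called in both lists named for users of NADPH. In the lipid synthesis list 5 of 10 were called higher and 0 lower (median 0.30). Cyp51 (0.73, with its other probe set at 0.22, adjusted p = 0.31) and Sqle (0.32) act in sterol synthesis, as does Nsdhl (0.55), a sterol dehydrogenase that does not itself consume NADPH. The others were Hsd17b12 (0.54) and Tecr (0.63) of fatty acid elongation. Fasn, fatty acid synthase, differed by 0.25 ± 0.13 (limma adjusted p = 0.23). In redox defence 2 of 8 were called higher and 0 lower (median 0.13), Cbr1, a carbonyl reductase (0.50 ± 0.13, adjusted p = 0.012), and Blvrb, biliverdin reductase B (0.51 ± 0.16, adjusted p = 0.033). Gsr, glutathione reductase, differed by 0.09 ± 0.10 (adjusted p = 0.65). Each list was read against the 4.19% of all genes called higher, and no test of a list was made.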

How the data were processed

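Signal intensity per probe set was taken from the deposited table as the authors had scaled it, and is linear. GCOS version 1 is named in the submitters' processing notes. Neither the signal algorithm nor detection calls are given in the sources used here. Gene symbols came from the platform annotation, updated through Entrez IDs: 20380 probe sets named 1 gene, 691 several and 1555 none, and 64 were controls.

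From these intensities log2(signal + 16) was computed, the brightest probe set of each gene kept, and the lowest 25% of genes left out (9294 tested). The same was done for all probe sets (16969 tested). limma 3.58.1 in R 4.3.3 was fitted with 4 group means on 37 arrays (33 residual degrees of freedom, eBayes with a trend), two-sided, with Benjamini-Hochberg adjustment within each of 9 contrasts and a threshold of 0.05. Errors with ± are standard errors of that fit. Tested on simulated data for the averaged contrast over 9294 genes, shifts of 0.25, 0.5 and 1 were recovered in 4.45%, 70.8% and 96.95% of cases. Array signals have no counts, so the number of arrays limits the precision.

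The members and lists were chosen with earlier results of these data known. Named were all members with every probe set, list genes called in the averaged contrast (up to 6 a list) with Me1, Fasn and Gsr, and the 3 nearest genes of each member. Alternatives covered the pseudocount, the filter, the probe set rule, the scaling, the run, marker covariates, left-out arrays and array weights. Correlations were tested by permutation within runs without regard to group, a test chosen after seeing the data. Arrays high in B lymphocyte markers are those above the widest gap in the mean of these markers. Replicate numbers follow accession order and pair no samples. Promoters came from RefSeq (GRCm38.p6).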

Additional observations from a re-analysis of the deposited data

Results flagged for a closer look

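Of 28 sets of arrays checked (7 genes in 4 groups), 2 held an array whose gap to its nearest neighbour was wide for the range of its group. Chance alone gives about 1 in 20 such sets. Both concerned Rpia. CR+EX replicate 8 was the lowest of its group with a signal of 720.7, against 1135.9 for the next array, a gap of 0.704 of the range on the log2 scale. AL replicate 9 was the lowest of its group with 618.7, against 899.1, a gap of 0.480 of the range. Both arrays belong to run 4, and their Gapdh 3' to 5' ratios were 0.790 and 0.872. Both were among the arrays high in B lymphocyte markers, with a marker mean of 8.90 and 10.13 on the log2 scale. Whether either belongs with the Rpia values was not tested.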

How the results depend on the processing

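Across 16 other settings of the averaged restriction contrast, Taldo1 passed in 16 (0.29 to 0.48) and Rpe in 15 (0.20 to 0.57), while Pgd passed in 5, Tkt in 2, Rpia in 1, and Pgls and Idh1 in 0. The run as a block raised the calls over all genes as well, to 18.8% in the averaged contrast, 6.17% for CR against AL and 558 genes for CR+EX against AL+EX (153 in the reported fit). Without the arrays high in B lymphocyte markers (the B-rich arrays) the averaged contrast called 497 of all genes, against 813. The count of called genes in the averaged contrast was 4 of 7 with the run as a block, 3 of 7 without the B-rich arrays, and 2 to 4 when 1 array at a time was left out (Pgd without AL replicate 6, AL+EX replicate 5, or CR+EX replicates 8 or 9). Tkt passed with the mean of its probe sets (0.37, adjusted p = 0.021) and with quantile normalization (0.24, adjusted p = 0.044). For CR against AL the count was 1, Rpe each time, with the run as a block, with array quality weights, with only the groups of the contrast, and with both settings added after seeing the data (the run as a block with the adipocyte mean, and the run as a block without the arrays of high Gapdh ratio), and 0 to 1 with 1 array left out. For CR against AL+EX it was 1 with the mean of all probe sets and with only the groups of the contrast, 0 with the B-rich arrays left out, 0 with the adipocyte covariate and 0 with the run and that covariate, and 1 to 2 with 1 array left out. For CR+EX against AL+EX it was 2 with median centring, with the run as a block and without the B-rich arrays, 0 with the adipocyte covariate, alone or with the run, and 0 to 2 with 1 array left out. The number of called member probe sets was 8 of 13 with the run as a block, with or without the arrays of high Gapdh ratio (17.5% of all probe sets called with all arrays and 13.4% without those, against 7.31% without the block), and 4 to 6 with 1 array left out. The cause of these moves was not tested. Signs turned only in differences without a call. For Idh1 the averaged difference was 0.10 with the mean of probe sets, 0.038 with median centring, 0.024 without high Gapdh arrays, 0.0055 with the adipocyte covariate and 0.040 with the run and without high Gapdh arrays. Its CR against AL+EX value was -0.095 without the B-rich arrays and -0.065 with the run and the adipocyte covariate, its CR+EX against AL value 0.010 with the mean of probe sets, and its CR+EX against AL+EX value -0.027 without the B-rich arrays. For Pgls, CR against AL+EX was -0.040 and CR+EX against AL+EX -0.11 with the run and the adipocyte covariate, CR+EX against AL+EX -0.035 with that covariate alone, and the interaction 0.0040 with the run and without high Gapdh arrays. For Rpe, AL+EX against AL was 0.083 with the mean of probe sets and 0.030 with the run and the adipocyte covariate, the wheel difference 0.062 with the mean of probe sets, and the interaction 0.011 with median centring and 0.058 without high Gapdh arrays. For Tkt, CR against AL was -0.0024 without the B-rich arrays and the interaction -0.0095 with the adipocyte covariate. Median centring split the calls of the averaged contrast into 491 higher and 180 lower genes, and quantile normalization into 425 and 313, against 389 and 424. No paired analysis was possible because the labels give each array its own animal number and no replicate number shared between groups. Array signals without detection calls leave the limit of detection unknown.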
